A study of Mus musculus with 3 samples.

Results

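The 45 genes described here belong to the integrated stress response and to the amino acid programme tied to its transcription factor ATF4, and were measured in mouse keratinocytes, the epithelial cells of the epidermis. They were chosen by name, with earlier results of these data known. Among them are 7 transcription factors, 9 effectors and feedback regulators, 2 kinases of the translation factor eIF2 and 10 enzymes of amino acid synthesis. The rest are 4 enzymes of the mitochondrial one-carbon pathway, 7 amino acid transporters and 6 aminoacyl-tRNA synthetases. All 45 were found by symbol among the 41214 gene identifiers of the count tables, and all 45 were among the 11865 genes with at least 1 CPM (counts scaled to a fixed total per library) in at least 1 library, so no member was lost to the filter on low counts. RNA was sequenced from 3 cultures of exponentially growing keratinocytes of the C57BL/6 strain, all immortalised with SV40, with 1 library per genotype: wild type (wt), a knockout of ARPC4 (ARPC4 ko), which is a subunit of the actin-nucleating Arp2/3 complex, and Nrf2-EGFP, a name that joins the antioxidant transcription factor Nrf2 to a green fluorescent protein. The titles give all 3 the same line code and add Cre for the ARPC4 ko library and High for the Nrf2-EGFP library. No clone or promoter is named in the sources used here, and neither is the meaning of High.

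The integrated stress response links stress to protein synthesis. Kinases that sense amino acid shortage (GCN2, encoded by Eif2ak4) or unfolded proteins in the endoplasmic reticulum (PERK, encoded by Eif2ak3) phosphorylate eIF2, which slows translation in general but raises translation of the Atf4 mRNA. ATF4 protein, usually paired with a C/EBP factor, then binds composite C/EBP-ATF elements in genes for amino acid synthesis, uptake and tRNA charging, and in regulators such as Ddit3 and Trib3. Because ATF4 is controlled largely at translation and protein turnover, an Atf4 mRNA level is not a measure of ATF4 activity.

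Gene counts per library were 22924294 for wt, 23033863 for ARPC4 ko and 25723959 for Nrf2-EGFP. The Arpc4 mRNA was lowest, but still well detected, where the label says ARPC4 ko (94.2, 61.0 and 98.4 CPM in the order wt, ARPC4 ko, Nrf2-EGFP). Nfe2l2, which encodes Nrf2, was not higher where the label says Nrf2-EGFP (224.7, 179.5 and 166.4 CPM), so ARPC4 ko and Nrf2-EGFP stand throughout for the libraries that carry these labels. All 9 keratinocyte markers checked were above the filter, and their summed level was highest in wt (23447 CPM), lowest in ARPC4 ko (13370) and intermediate in Nrf2-EGFP (17650). Of the markers of other cell types, 2 of 8 for fibroblasts, 1 of 8 for immune cells, 1 of 7 for melanocytes and 2 of 6 for endothelium were above it, each list summing to between 1.60 and 6.38 CPM in every library. The collagens Col1a2 and Col3a1, the T cell gene Cd3e and the melanocyte enzyme genes Tyr, Tyrp1 and Dct had 0 counts in all 3. With 1 library per genotype the spread between cultures was not measured, so no p-value is given and each difference is one between libraries. Ranges in parentheses are exact 95% intervals of the ratio of counts and cover counting error only. A gene passed the size rule where the log2 ratio of CPM + 0.5 was at least 1 in size and this interval excluded 1. In bulk RNA, fewer cells of a type and less RNA per cell cannot be told apart.

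Promoter sequences of the members are shown first, because many of the differences below ran the same way and the group is defined by its link to ATF4. RefSeq windows on GRCm38.p6, from 250 bases before to 50 after each gene start, were available for 38 of the 45 genes. The 8-letter core TGATGNAA of the C/EBP-ATF element was searched on both strands. It occurred in 11 of the 38 genes (28.9%), against 2.62% of the 9264 genes above the filter that had a window and 4.51% of all 27025 genes with one. Many members were included because they are known ATF4 targets, so this share describes the list and is not independent of it. Matches in 10 genes are printed below on the strand where it reads TGATGNAA, 5′ to 3′, with the 8 matched letters in capitals and 11 bases of genome on either side. Trib3 and Nupr1 are shown because they passed the size rule against wt in both other libraries, and the rest, chosen after their values were seen, to show the range of the element.

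Trib3, chr2:152344028-152344057, plus strand: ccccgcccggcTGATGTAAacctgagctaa
Nupr1, chr7:126625562-126625591, plus strand: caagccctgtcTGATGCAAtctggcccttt
Chac1, chr2:119351038-119351067, minus strand: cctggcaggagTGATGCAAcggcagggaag
Vldlr, chr19:27216809-27216838, minus strand: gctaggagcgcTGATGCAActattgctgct
Atf3, chr1:191183425-191183454, plus strand: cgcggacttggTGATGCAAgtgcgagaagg
Asns, chr6:7693214-7693243, minus strand: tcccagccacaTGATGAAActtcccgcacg
Pycr1, chr11:120643833-120643862, minus strand: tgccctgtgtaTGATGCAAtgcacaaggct
Slc1a4, chr11:20332699-20332728, plus strand: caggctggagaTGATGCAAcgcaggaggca
Gars, chr6:55037960-55037989, minus strand: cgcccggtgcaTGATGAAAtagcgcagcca
Iars, chr13:49682126-49682155, minus strand: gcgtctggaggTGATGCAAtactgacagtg

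The commonest form was TGATGCAA, found in 8 of the 38 genes (21.1%) and in 0.712% of genes above the filter. The printed Trib3 and Iars matches lay within the first transcribed bases by the RefSeq start, 15 and 8 bases in. The other printed matches began between 4 and 200 bases upstream of it, read in the direction of the gene. The Slc1a4 match, which began 4 bases upstream, spans the start. In Asns, the asparagine synthetase gene, the match is part of a known pair of nutrient-sensing elements, TGATGAAAC and GTTACA, separated by 11 bases. The stretch that holds both, with each element in capitals, is printed here.

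Asns pair, chr6:7693207-7693232, minus strand: TGATGAAACttcccgcacgcGTTACA

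Asns was the 1 gene of 27025 (0.0037%) whose window held this pair at this spacing on either strand. Genes with a match did not stand lower than those without. The median log2 fold against wt was -0.70 with a match and -0.79 without in ARPC4 ko, and -0.41 and -0.63 in Nrf2-EGFP. No match says only that these letters are not in the window searched.

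The programme as a whole was lower in both other libraries than in wt, and lowest in ARPC4 ko. In ARPC4 ko against wt, 16 of 45 genes passed the size rule as lower and none as higher, against 2.06% (lower), 4.7% (higher) and 6.76% (either) of all genes. The log2 fold was below 0 for 43 of 45, against 51.5% of all genes, and the counting interval lay below 1 for 41, against 34.6%. The median log2 fold was -0.79 for the members and -0.01 for all genes. In Nrf2-EGFP against wt, 10 of 45 passed as lower and none as higher, against 2.05% (lower), 3.57% (higher) and 5.61% (either) of all genes. There 43 of 45 lay below 0, against 49.5%, with the counting interval below 1 for 38, against 30.8%, and the median was -0.55 for the members and 0.00 for all genes. The comparisons share the wt library, so a high value in that 1 culture would lower both. Because earlier results of these data were known when the genes were chosen, these counts may not be independent of that choice.

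At a size rule of 1.5-fold the counts were 33 of 45 lower in ARPC4 ko, against 6.24% of all genes, and 21 of 45 in Nrf2-EGFP, against 5.72%. The summed level of the 45 genes was 11834 CPM in wt against 7060 in ARPC4 ko and 8811 in Nrf2-EGFP, that is 1.68-fold lower in ARPC4 ko and 1.34-fold lower in Nrf2-EGFP. For all 11865 genes the ratio of the sum to that in wt was 0.929 in ARPC4 ko and 1.02 in Nrf2-EGFP. The summed keratinocyte markers had the same order of libraries as the 45 genes, and the part of these markers in the result was not tested. Wt was the highest of the 3 libraries for 42 genes, against 38.9% of all genes, and 33 genes followed the order wt, Nrf2-EGFP, ARPC4 ko, against 22.3%. The exceptions to wt as the highest were Eif2ak3, Eif2ak4 and the arginine and lysine transporter gene Slc7a1. Scaling by total counts alone left 8 of the 16 genes past the rule in ARPC4 ko, against 1.67% of all genes. The genes lost were Atf5, Nupr1, Chac1, Sesn2, Psat1, Gpt2, Slc6a9 and Nars, which lay between 2.02-fold and 2.14-fold lower with TMM scaling.

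**Figure D1:**
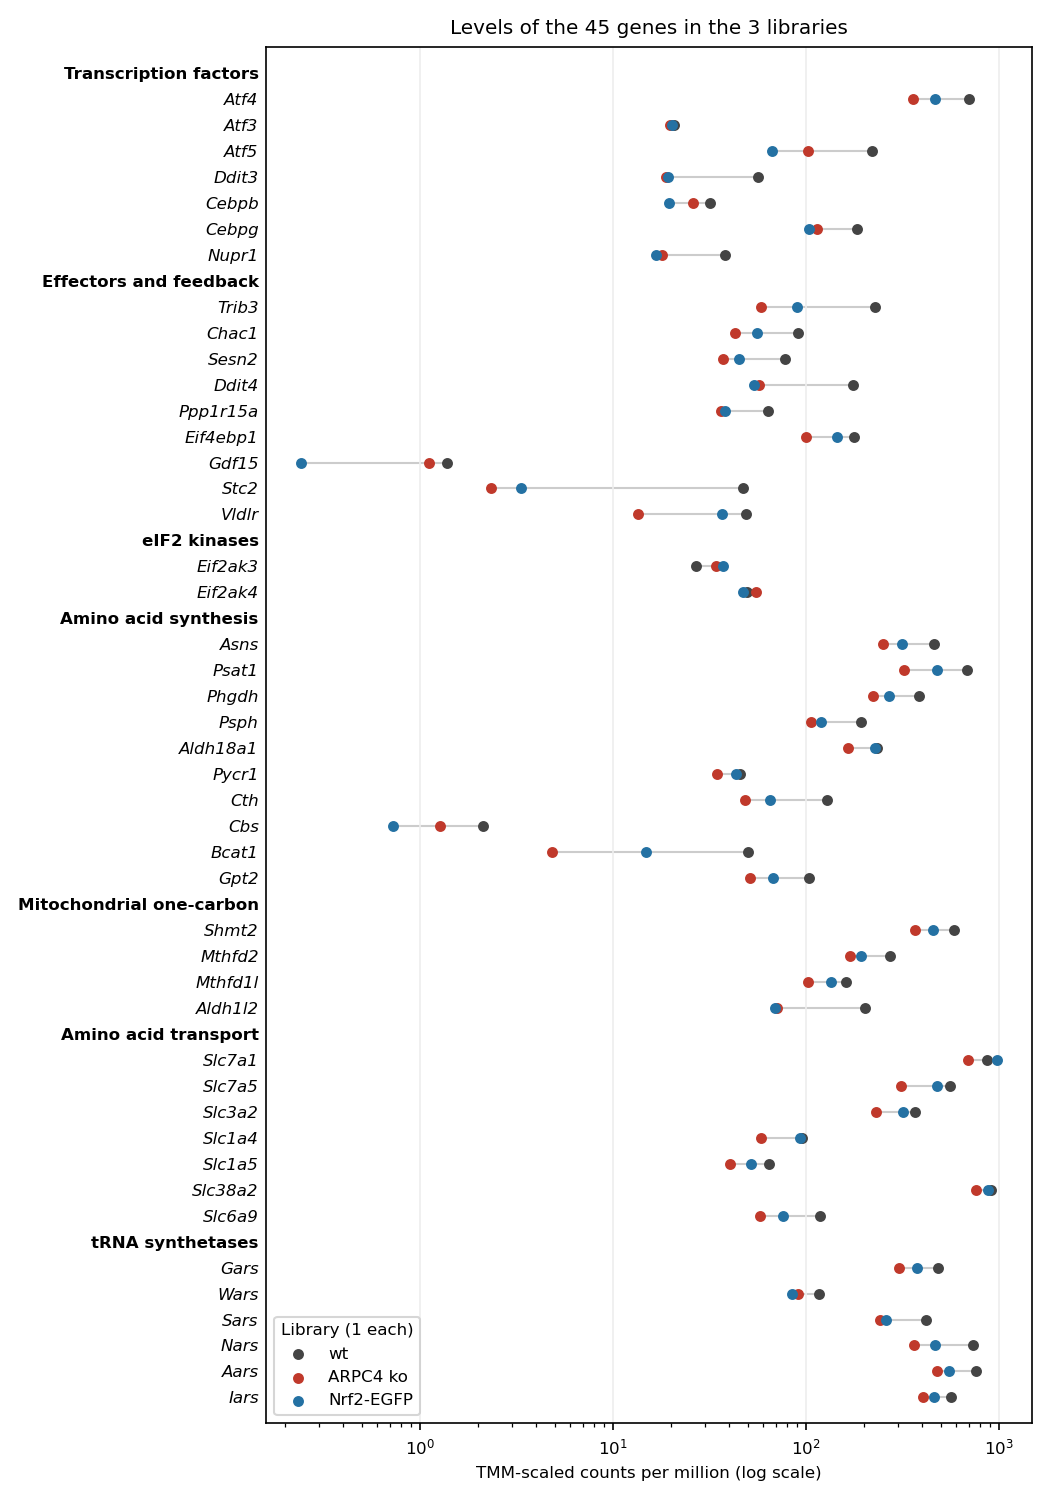
Level of each of the 45 genes in the 3 libraries, in TMM-scaled CPM on a log axis, grouped by role, with 1 point per library. The grey wt point is the rightmost for 42 of the 45 genes, and the red ARPC4 ko point is the leftmost for 34.

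**Figure D2:**
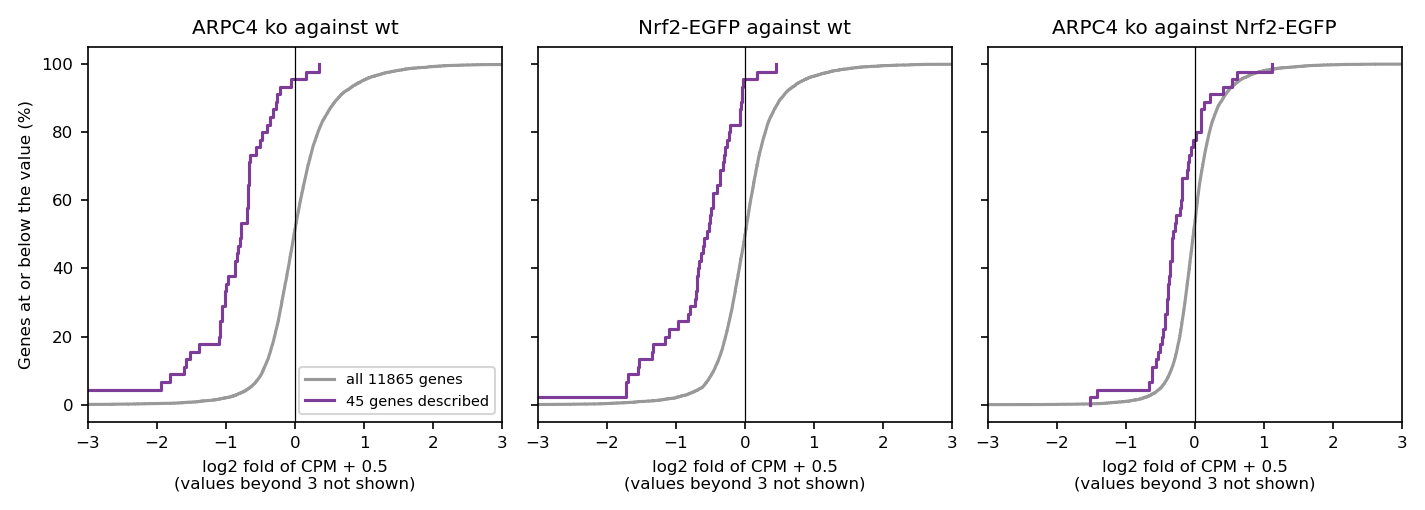
Share of genes (%) at or below each log2 fold of CPM + 0.5, for the 45 genes (purple) and for all 11865 genes (grey), in the 3 pairs of libraries, with values beyond 3 outside the axis. The purple curve lies left of the grey one in both comparisons with wt (medians -0.79 and -0.55) and less far left between ARPC4 ko and Nrf2-EGFP (median -0.31).

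Of the 7 transcription factors, 3 passed as lower in ARPC4 ko and 3 in Nrf2-EGFP, and Atf3 was close to wt in both. Over all genes 2.06% and 2.05% passed as lower. Scaling by total counts left 1 of the 3 in ARPC4 ko. Atf4 (chromosome 15, 80255184 to 80257541 on mm10) stood at 702 CPM in wt against 358 in ARPC4 ko and 468 in Nrf2-EGFP. The ARPC4 ko level was 1.96-fold under wt (1.91 to 2.01), just outside the size rule, and in Nrf2-EGFP it was 0.666 of the wt level (0.651 to 0.683). Per kilobase of merged exons it was the most abundant of the 45 genes in wt, at 298 CPM per kilobase. Atf5, a related factor that is itself translated under eIF2 phosphorylation and acts in the mitochondrial stress response, stood at 219 CPM in wt, at 102 in ARPC4 ko and lowest, at 66.5, in Nrf2-EGFP. The gene was 2.14-fold lower (2.04 to 2.25) in ARPC4 ko and 3.30-fold lower (3.12 to 3.49) in Nrf2-EGFP. The order wt, ARPC4 ko, Nrf2-EGFP was shared by 9 of the 45 genes, Atf5 included.

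Ddit3, which encodes the pro-apoptotic factor CHOP, had 56.8 CPM in wt against 18.8 in ARPC4 ko and 19.4 in Nrf2-EGFP. The 2 lower libraries did not differ beyond counting error, with a log2 fold of -0.05 between them. Nupr1, a small stress-induced chromatin protein, had 38.0, 17.9 and 16.8 CPM in the same order, 2.12-fold lower (1.89 to 2.39) and 2.26-fold lower (2.01 to 2.55) than wt. Cebpg, a partner of ATF4 at composite elements, had 184, 114 and 103 CPM and passed in neither comparison. Cebpb had 31.7, 26.1 and 19.6 CPM, the lowest in Nrf2-EGFP. Atf3, an early stress-induced repressor with the core motif in its promoter, had 20.7, 19.8 and 20.2 CPM, and both intervals against wt included 1. Its log2 fold in ARPC4 ko changed sign when libraries were scaled by total counts.

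Among the 9 effectors and feedback regulators, 6 passed as lower in ARPC4 ko and 4 in Nrf2-EGFP, and their summed level was 2.61-fold and 1.95-fold lower. Over all genes 2.06% and 2.05% passed as lower. Scaling by total counts left 4 of the 6 in ARPC4 ko. Trib3, a pseudokinase that binds ATF4 and limits its activity, had 228 CPM in wt against 58.9 in ARPC4 ko and 90.3 in Nrf2-EGFP. Both other libraries lay well under wt, and ARPC4 ko was a further 1.53-fold lower (1.43 to 1.64) than Nrf2-EGFP. Ddit4, an inhibitor of the growth kinase complex mTORC1 that also responds to low oxygen, had 175 CPM in wt against 57.1 in ARPC4 ko and 53.7 in Nrf2-EGFP. The folds were 3.07-fold lower (2.88 to 3.26) and 3.26-fold lower (3.06 to 3.47), and the interval between the 2 lower libraries included 1. Chac1, which degrades glutathione, had 91.6, 43.0 and 55.7 CPM, and Sesn2, a leucine sensor that restrains mTORC1, had 78.1, 37.1 and 44.9. Both passed in ARPC4 ko (53.1% and 52.4% lower) and not in Nrf2-EGFP (1.64-fold and 1.74-fold lower).

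Stc2, which encodes the secreted glycoprotein stanniocalcin 2, differed most among the members. It had 1065 counts in wt against 57 in ARPC4 ko and 83 in Nrf2-EGFP, or 47.4, 2.34 and 3.34 CPM. Among all 11865 genes its log2 fold was the second lowest in ARPC4 ko against wt and the lowest in Nrf2-EGFP against wt, ranks 2 and 1. Vldlr, a lipoprotein receptor that is a known ATF4 target, separated the libraries: 49.0 CPM in wt against 13.6 in ARPC4 ko and 36.8 in Nrf2-EGFP. The Nrf2-EGFP level was 1.33-fold under wt (1.22 to 1.45), without passing, and ARPC4 ko was 2.71-fold lower (2.39 to 3.09) than Nrf2-EGFP. Ppp1r15a, the regulatory subunit that returns eIF2 to its active form, had 63.5, 36.3 and 38.3 CPM. Eif4ebp1, a translation inhibitor, had 178.5, 100.7 and 145 CPM, and neither gene passed. Gdf15, a stress cytokine, was near the detection limit with 31, 27 and 6 counts, and passed as lower in Nrf2-EGFP (5.71-fold, 2.35 to 16.7).

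Of the 2 kinase genes, both were above wt in ARPC4 ko, whereas in Nrf2-EGFP Eif2ak3 was above and Eif2ak4 slightly below. Eif2ak3 had 26.9 CPM in wt against 34.2 in ARPC4 ko and 37.1 in Nrf2-EGFP, and the ratios to wt were 1.27 (1.15 to 1.42) and 1.38 (1.24 to 1.53). Eif2ak4 had 49.4, 55.4 and 47.2 CPM, with ratios of 1.12 (1.04 to 1.22) and 0.956 (0.88 to 1.04). Neither passed the size rule. RNA levels of the kinases say nothing about their activation, which was not measured. The remaining eIF2 kinases, which belong to a further list of 13 genes of the eIF2 and eIF2B machinery and were named after their values were seen, were above wt in both libraries. Eif2ak1, the heme-regulated kinase, had 59.1, 82.3 and 86.3 CPM. Eif2ak2, the double-stranded RNA-dependent kinase PKR, had 28.2, 56.4 and 43.7 CPM, and at a log2 fold of 0.99 lay just under the size rule in ARPC4 ko. Impact, whose product inhibits GCN2, was the 1 gene of that list past the rule, 2.24-fold lower (1.94 to 2.58) in Nrf2-EGFP. Over all genes 2.05% passed as lower there, so this 1 gene of 13 does not set the list apart. The median of the list was -0.18 in ARPC4 ko and -0.21 in Nrf2-EGFP.

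**Figure D3:**
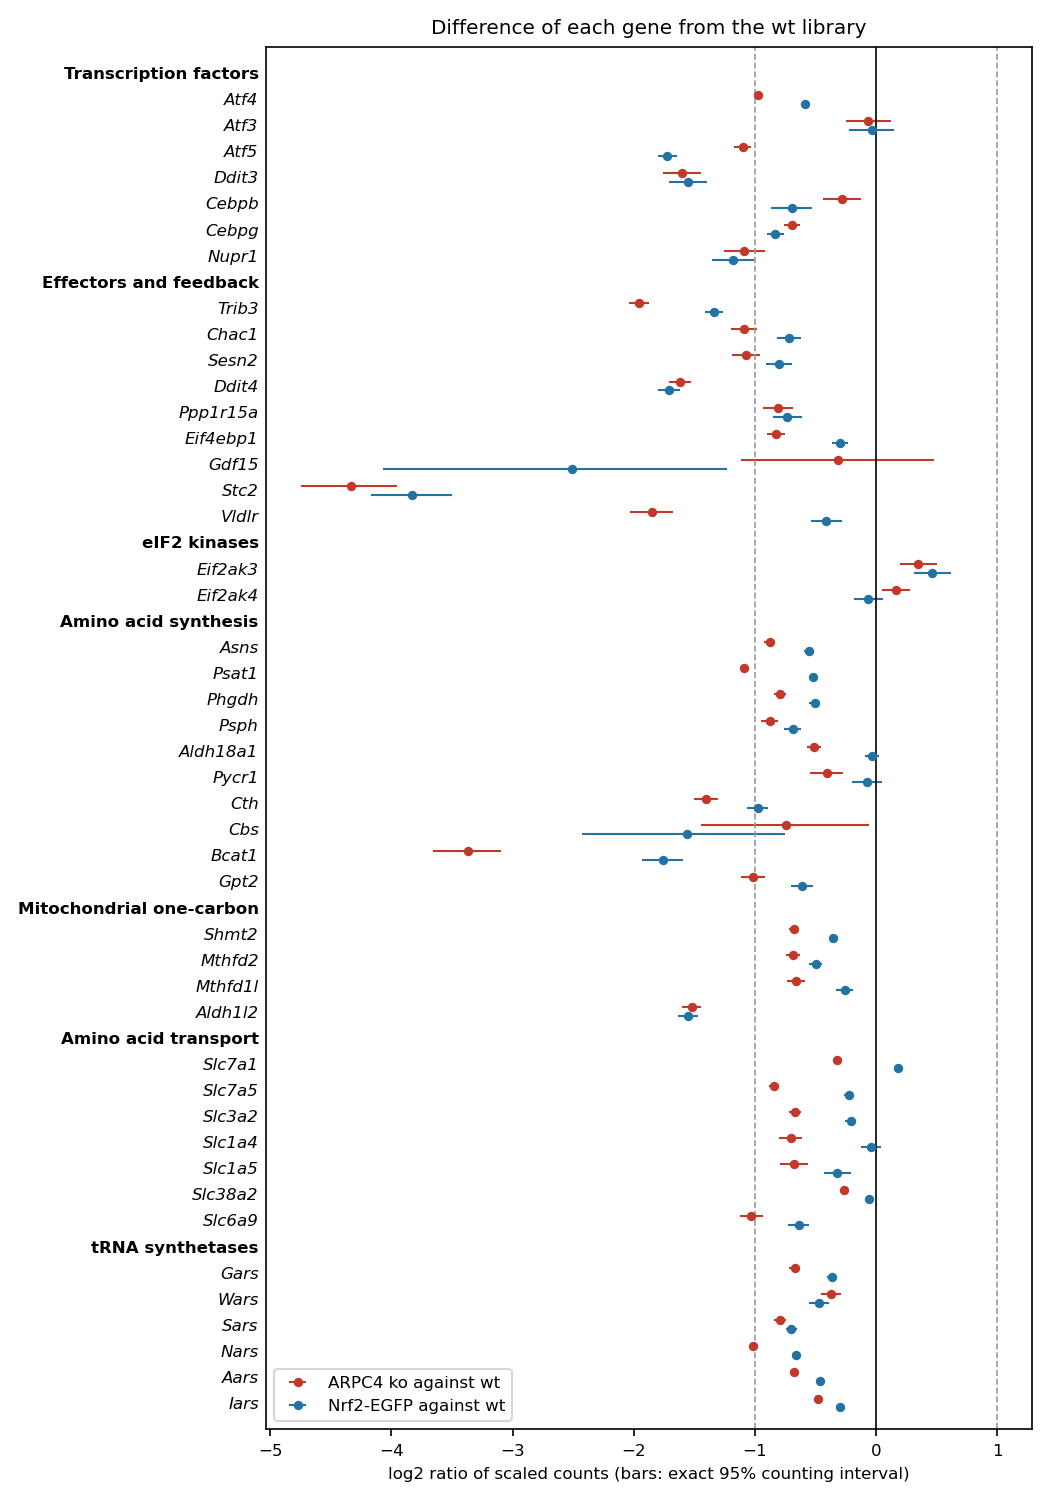
Log2 ratio of scaled counts to the wt library for each of the 45 genes in ARPC4 ko (red) and Nrf2-EGFP (blue), with exact 95% counting intervals as bars and dashed lines at a 2-fold difference. Stc2 and Bcat1 lie farthest left in red, and only Eif2ak3, Eif2ak4 and Slc7a1 have a point right of 0.

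All 10 amino acid synthesis genes were below wt in both libraries, 4 past the rule in ARPC4 ko and 2 in Nrf2-EGFP. Over all genes 2.06% and 2.05% passed as lower. Scaling by total counts left 2 of the 4 in ARPC4 ko. The serine pathway makes serine from a glycolytic intermediate in 3 steps, encoded by Phgdh, Psat1 and Psph. Psat1 had 688 CPM in wt against 324 in ARPC4 ko and 479.5 in Nrf2-EGFP, and was the one of these genes to pass, 2.12-fold lower (2.07 to 2.18) in ARPC4 ko. Phgdh, the committed step, had 385, 223 and 271 CPM, and Psph had 194, 106 and 121 CPM, 1.73-fold and 1.84-fold lower in ARPC4 ko. All 3 kept the order wt, Nrf2-EGFP, ARPC4 ko. Asns, with the element pair shown above, had 461, 251 and 314 CPM, 1.84-fold lower (1.78 to 1.90) in ARPC4 ko and 1.47-fold lower (1.43 to 1.51) in Nrf2-EGFP.

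Bcat1, the cytosolic branched-chain aminotransferase, showed the largest difference among the enzymes. Its level was 50.2 CPM in wt against 4.85 in ARPC4 ko and 14.8 in Nrf2-EGFP, 10.3-fold lower (8.55 to 12.6) and 3.39-fold lower (3.01 to 3.82) than wt. The 2 lower libraries differed as well, by 3.05-fold (2.47 to 3.79). Cth, which makes cysteine from cystathionine, had 128 CPM in wt against 48.5 in ARPC4 ko and 65.3 in Nrf2-EGFP, 2.64-fold lower (2.47 to 2.83) in ARPC4 ko and, just outside the rule, 1.97-fold lower (1.85 to 2.09) in Nrf2-EGFP. Cbs, the step before it, had few reads, with 48, 31 and 18 counts, and passed in Nrf2-EGFP (2.95-fold lower, 1.68 to 5.38). Gpt2, a mitochondrial alanine aminotransferase, had 103.9, 51.5 and 67.9 CPM and was just inside the rule in ARPC4 ko (2.02-fold, 1.88 to 2.16). The proline synthesis genes differed least. Aldh18a1 had 235, 165 and 229.8 CPM and Pycr1 had 45.8, 34.5 and 43.4 CPM, and for both the interval of Nrf2-EGFP against wt included 1.

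The 4 mitochondrial one-carbon genes, which carry the serine-derived carbon unit through folate in mitochondria, were all lower in both libraries. Of the 4, Aldh1l2 passed in both, as did 1.12% of all genes as lower. Aldh1l2, which oxidises formyl-folate to release carbon dioxide and NADPH, had 204 CPM in wt against 70.9 in ARPC4 ko and 69.6 in Nrf2-EGFP. The gene was thus 2.87-fold (2.72 to 3.04) and 2.93-fold lower (2.77 to 3.10), with no difference between the lower libraries beyond counting error. Shmt2, which splits serine to glycine, had 587, 367 and 459 CPM. Mthfd2 had 273, 169.8 and 193 CPM, and Mthfd1l, which releases formate, had 162, 103 and 136 CPM. These 3 were between 1.58-fold and 1.61-fold lower in ARPC4 ko and between 1.20-fold and 1.41-fold lower in Nrf2-EGFP. Of 12 genes of the cytosolic folate and methionine cycle none passed the rule in either comparison with wt, where 6.76% and 5.61% of all genes did, so that count does not set the list apart. Their median log2 fold was -0.10 in ARPC4 ko and -0.07 in Nrf2-EGFP, against -0.68 and -0.42 for the mitochondrial genes. Total-count scaling moved the cytosolic median in ARPC4 ko to 0.00, just above 0. The difference between the lists was not tested.

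The amino acid transporters had the lowest median log2 fold of ARPC4 ko against Nrf2-EGFP of any role, -0.46. All 7 were lower in ARPC4 ko than in wt, with a summed level 1.38-fold lower, whereas in Nrf2-EGFP the sum was 1.04-fold lower. Slc7a5 and Slc3a2, which together form the large neutral amino acid exchanger LAT1, had 558 and 369 CPM in wt against 310.9 and 232 in ARPC4 ko and 478 and 319 in Nrf2-EGFP. The pair thus lay 1.80-fold (1.75 to 1.85) and 1.59-fold (1.54 to 1.65) lower in ARPC4 ko, and 1.17-fold (1.14 to 1.20) and 1.16-fold (1.12 to 1.19) lower in Nrf2-EGFP. Slc1a4, a carrier of alanine, serine and cysteine, had 95.9, 58.8 and 93.2 CPM, and its interval of Nrf2-EGFP against wt included 1. Slc1a5, the glutamine carrier, had 64.5, 40.4 and 51.7 CPM.

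Slc38a2, a sodium-coupled neutral amino acid carrier, had 912, 762 and 877 CPM, 1.20-fold (1.17 to 1.22) and 1.04-fold (1.02 to 1.06) lower. Slc7a1 had 868, 696 and 982 CPM and was the 1 transporter higher in Nrf2-EGFP than in wt, with a ratio of 1.13 (1.11 to 1.15). Slc6a9, the glycine transporter, was the 1 transporter of 7 past the rule, as lower in ARPC4 ko, against 2.06% of all genes. It had 117.9 CPM in wt against 57.8 in ARPC4 ko (2.04-fold lower, 1.91 to 2.18) and 75.8 in Nrf2-EGFP. With scaling by total counts it did not pass.

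Amino acid carriers outside the member list lay above wt by their median, and no test compared the lists. Of 20 listed, 11 were above the filter, and their median log2 fold was 0.37 in ARPC4 ko and 0.52 in Nrf2-EGFP. Slc38a1, a glutamine carrier, was 2.28-fold higher (2.06 to 2.51) in ARPC4 ko. Slc36a4 had 7.74 CPM in wt and 16.2 in ARPC4 ko, and passed as higher. These were the 2 of 11 past the rule there, where 4.7% of all genes passed as higher. In Nrf2-EGFP, Slc43a2 was 2.19-fold (1.75 to 2.75) and the glutamate carrier Slc1a1 2.11-fold higher (1.76 to 2.55). Slc7a3, an arginine and lysine carrier of low level (96 counts in wt, 45 in Nrf2-EGFP), was 2.36-fold lower (1.64 to 3.44) there. These 2 higher and 1 lower of 11 stand beside 3.57% and 2.05% of all genes. The cystine carrier Slc7a11, a target shared by ATF4 and Nrf2 that was named after its values were seen, had 112 CPM in wt against 107 in ARPC4 ko and 119.8 in Nrf2-EGFP.

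The 6 tRNA synthetases, which charge tRNA with glycine (Gars), tryptophan (Wars), serine (Sars), asparagine (Nars), alanine (Aars) and isoleucine (Iars), were all lower in both libraries. Nars had 736 CPM in wt against 365 in ARPC4 ko and 467 in Nrf2-EGFP. At 2.02-fold lower (1.96 to 2.07) in ARPC4 ko, Nars was the 1 synthetase of the 6 past the rule, against 2.06% of all genes. With scaling by total counts it did not pass. Gars had 487, 306 and 379 CPM, Sars 420.3, 243 and 259 CPM, and Aars 762, 477 and 554 CPM. Iars had 563, 405 and 459 CPM. Wars, which is also induced by interferon, had 117.0, 90.6 and 84.5 CPM and differed least in ARPC4 ko, 1.29-fold lower (1.22 to 1.37).

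The remaining 14 cytosolic synthetases differed among themselves. Their median log2 fold was -0.61 in ARPC4 ko and -0.30 in Nrf2-EGFP. Lars, for leucine, was the 1 past the rule, as lower in ARPC4 ko, against 2.06% of all genes. It had 473 CPM in wt against 223 in ARPC4 ko (2.12-fold lower, 2.05 to 2.19) and 276 in Nrf2-EGFP. In ARPC4 ko, 13 of the 14 lay below 0 (51.5% of all genes) and 12 had the interval below 1 (34.6%). There 7 were at least 1.5-fold lower (6.24%). In Nrf2-EGFP the numbers were 10 (49.5%), 10 (30.8%) and 1 (5.72%), the last near the share of all genes. The 4 nearest to wt or above it in ARPC4 ko were named after their values were seen. Farsa, Kars and Qars had ratios of ARPC4 ko to wt of 0.992, 0.903 and 0.947, and Vars had a ratio of 1.19 (1.15 to 1.23) in ARPC4 ko and 1.52 (1.47 to 1.57) in Nrf2-EGFP. Of 17 mitochondrial synthetases none passed in either comparison, a count that does not set them apart from all genes, and the median log2 fold was -0.18 in ARPC4 ko and -0.17 in Nrf2-EGFP. No test compared these lists.

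**Figure D4:**
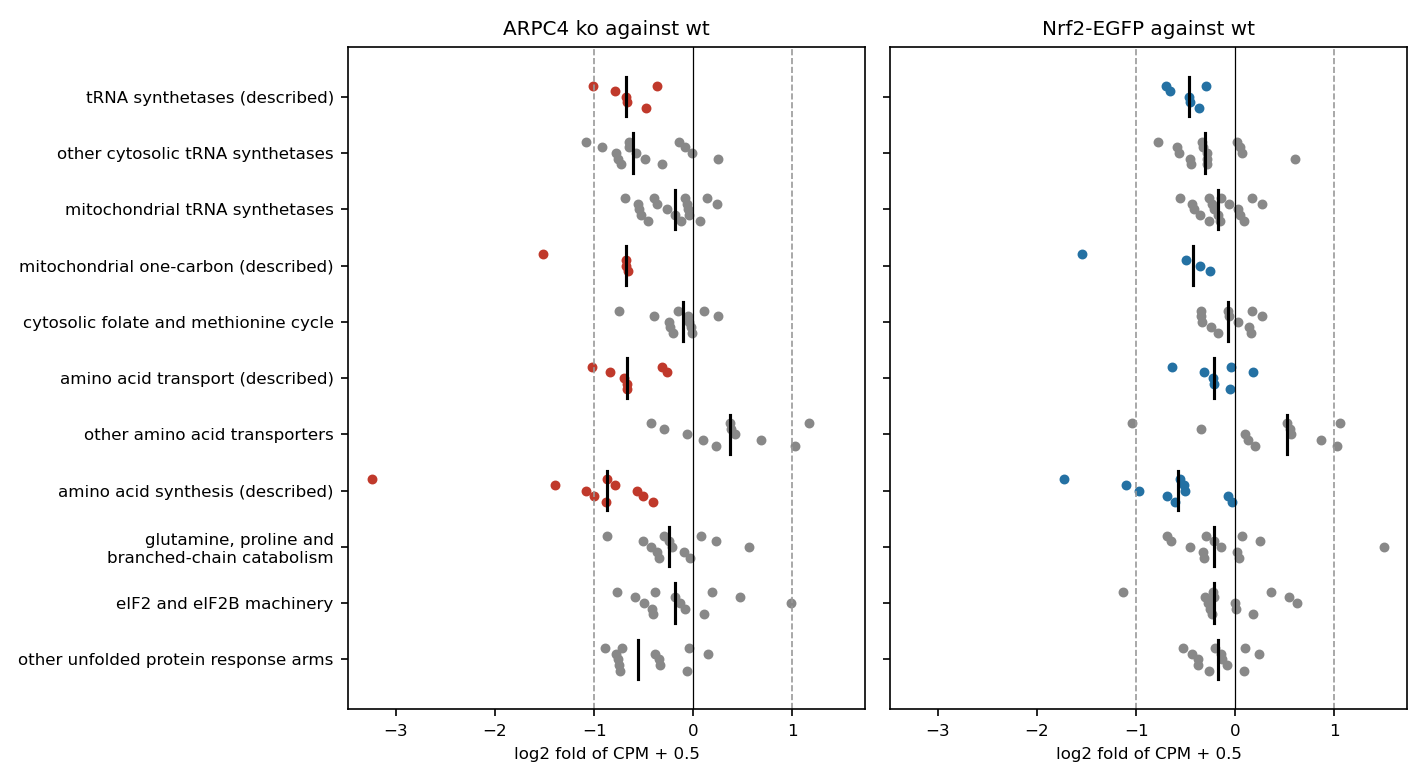
Log2 fold of CPM + 0.5 against wt for the genes described (coloured) and for further lists of related genes (grey), in ARPC4 ko (left) and Nrf2-EGFP (right), with black bars at list medians and dashed lines at a 2-fold difference. The 4 coloured rows have medians between -0.67 and -0.87 on the left. Nearest to them among the grey rows are the other cytosolic tRNA synthetases (-0.61) and the other unfolded protein response arms (-0.56). Farthest are the cytosolic folate list (-0.10) and the other amino acid transporters (0.37).

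The libraries labelled ARPC4 ko and Nrf2-EGFP were also compared directly, without wt. Here 35 of 45 genes had a log2 fold below 0, against 52.9% of all genes, and the interval lay below 1 for 31, against 31.8%, and above 1 for 6. The median was -0.31 for the members and -0.02 for all genes, so ARPC4 ko was the lower library for most of the programme by a small amount. Few genes passed the size rule: Vldlr and Bcat1 as lower, against 0.961% of all genes, and Gdf15, with 27 and 6 counts, as higher, against 2.01% (2.98% in either direction). At 1.5-fold 5 genes were lower, against 3.38%. All 7 transporters, and 9 of 10 synthesis genes, had intervals below 1. The transcription factors did not follow: Atf4 was 1.31-fold lower (1.27 to 1.34) in ARPC4 ko, whereas Atf5, Cebpb and Cebpg were higher, with log2 folds of 0.62, 0.41 and 0.14 and intervals of the ratio above 1. With scaling by total counts the median was -0.18, 30 genes lay below 0, and Atf3, Ddit3, Ppp1r15a, Eif2ak3 and Sars changed sign.

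**Figure D5:**
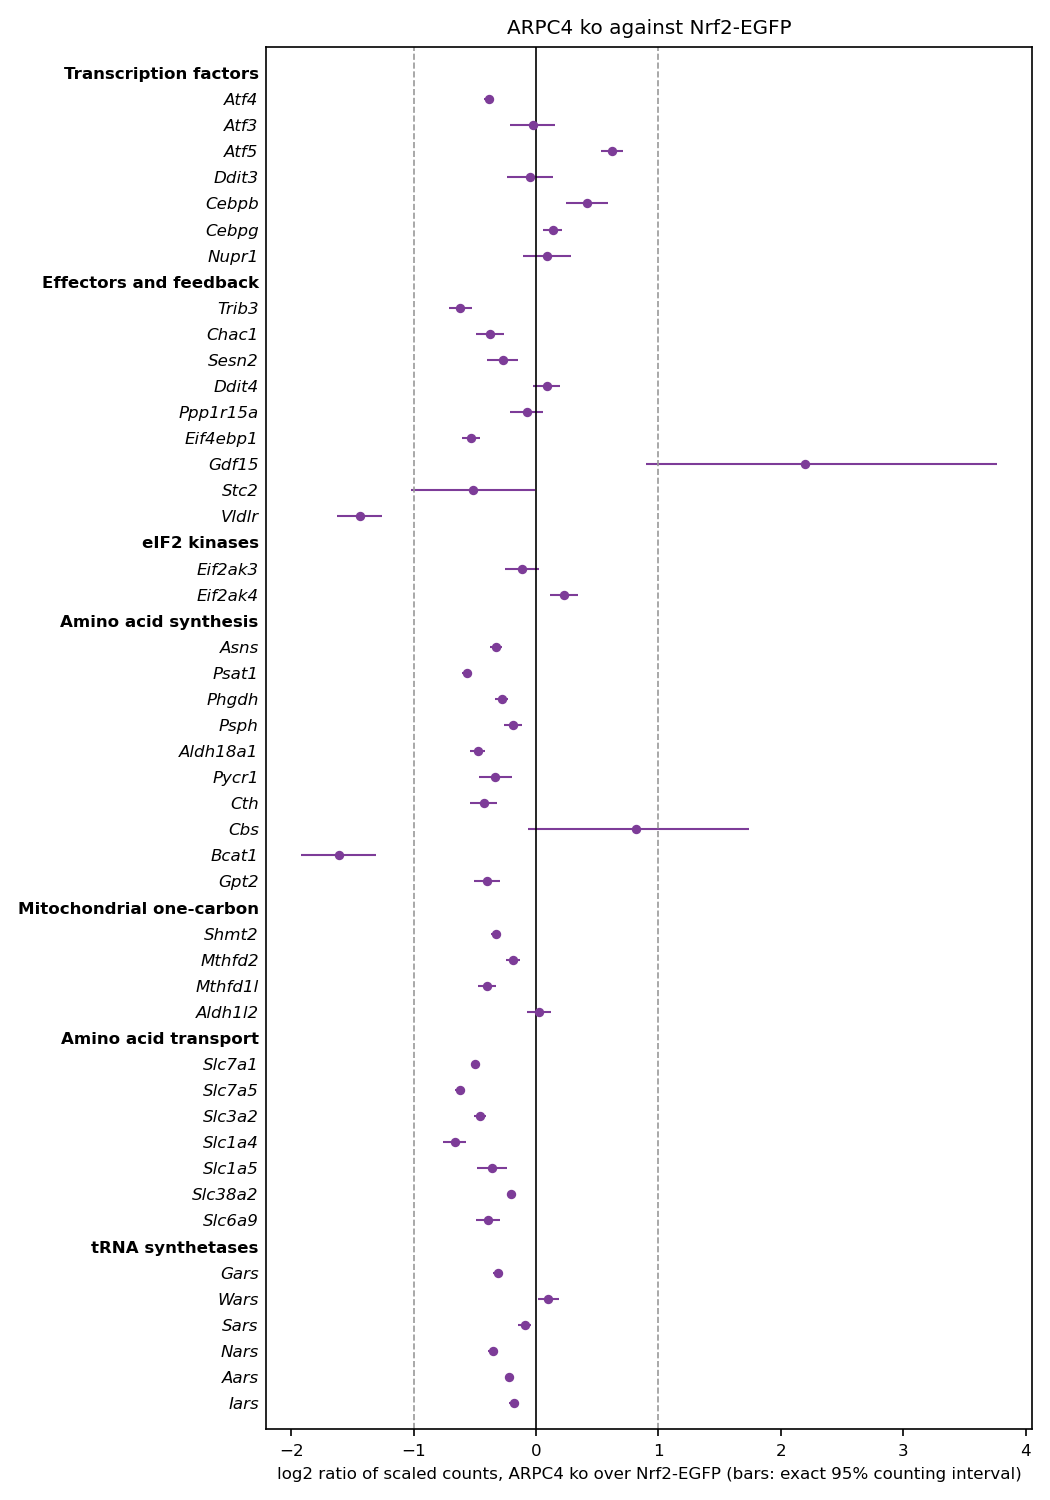
Log2 ratio of scaled counts of ARPC4 ko over Nrf2-EGFP for the 45 genes, with exact 95% counting intervals as bars and dashed lines at a 2-fold difference. Vldlr and Bcat1 lie left of the lower line and Gdf15 right of the upper one, and all 7 transporters lie left of 0.

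The genes past the rule were partly shared between ARPC4 ko and Nrf2-EGFP. By the rule, 8 genes were lower in both libraries against the shared wt: Atf5, Ddit3, Nupr1, Trib3, Ddit4, Stc2, Bcat1 and Aldh1l2. This is 50.0% of the ARPC4 ko list and 80.0% of the Nrf2-EGFP list. Over all genes, 244 were lower in ARPC4 ko, 243 in Nrf2-EGFP and 133 (1.12% of all) in both. An overlap near that of the ARPC4 ko list was thus also present over all genes. A further 8 passed in ARPC4 ko only (Chac1, Sesn2, Vldlr, Psat1, Cth, Gpt2, Slc6a9 and Nars), and 2, both of few counts, in Nrf2-EGFP only (Gdf15 and Cbs). Over all genes, those of the 244 and the 243 outside the shared 133 likewise passed in 1 library only. Of the ARPC4 ko-only genes, Vldlr alone passed in the direct comparison of those libraries. Just inside the rule in ARPC4 ko were Gpt2 and Nars, with log2 folds of -1.01 and -1.01, and just outside Atf4 and Asns, with -0.97 and -0.88. In Nrf2-EGFP, Cbs and Nupr1 (-1.11 and -1.15) were just inside, and Cth and Cebpg (-0.97 and -0.83) just outside.

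Some values depend on how reads were assigned. Among the 45 genes, 6 overlap a gene on the other strand that had at least 100 counts over the 3 libraries: Ddit3 with Mars (68 bases), Cebpb with Tmem189 (908), Psph with Cct6a (452), Aldh1l2 with D10Wsu102e (1056), Slc6a9 with B4galt2 (5939) and Wars with Wdr25 (544). These lengths are of whole gene spans, introns included, and not of shared exons. The libraries were strand-specific per the labels' protocols, but no source used here gives the strand setting of the counting. Without strand, reads where both genes have exons could not be told apart. In the order wt, ARPC4 ko and Nrf2-EGFP, Mars had 341, 217 and 279 CPM, highest in wt like its partner Ddit3. Wdr25 had 5.51, 5.02 and 3.38 CPM, the same order as its partner Wars. Cct6a had 538, 493 and 607 CPM, D10Wsu102e had 104, 97.3 and 116, and Tmem189 had 67.7, 66.7 and 75.9, each highest in Nrf2-EGFP. B4galt2 had 6.89, 13.1 and 6.32 CPM, highest in ARPC4 ko. The part of these overlaps in the members' values was not tested.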

How the data were processed

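Total RNA of 3 cultures, 1 per genotype, was made into strand-specific libraries and read as 65 bp single ends, per the labels' protocols. The deposited values are raw counts of reads per gene, made by the authors with TopHat2 2.1.0, Bowtie 1.1 and HTSeq on mm10, per the submitters' processing notes. Settings and annotation release: not given in the sources used here. Non-gene totals in the deposited count tables (between 8.22% and 9.08% of all counts, mostly alignments that were not unique) were left out. Near-identical copies thus lose reads.

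Symbols, coordinates and merged exon lengths came from GENCODE M21 (GRCm38), matched by gene identifier for 40340 identifiers. Libraries were scaled by TMM (edgeR 4.0.16, R 4.3.3). Genes with at least 1 CPM in 1 library were kept (11865). The log2 fold is that of CPM + 0.5, which understates differences of low genes, whereas folds and ratios use scaled counts without a pseudocount. Intervals are Clopper-Pearson, conditional on a gene's sum (scipy 1.17.1). Because reads carried no molecular identifiers, intervals and limits cover counting error only. Where a gene has 0 counts, up to 3 are allowed, which is 0.133 CPM for wt, 0.123 for ARPC4 ko and 0.121 for Nrf2-EGFP.

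The 45 genes and the lists were chosen with earlier results of these data known. All 45 are named, with values in each library for Atf4, for those past the size rule and for those nearest to it. Of the 7 further lists, genes past the rule are named, and others are marked as named after their values were seen. Promoter windows are RefSeq's on GRCm38.p6. Some promoter matches are not reported here. The alternatives were DESeq2 1.42.0 size factors, total counts, no filter, a filter of 10 CPM, a pseudocount of 2 CPM and a 1.5-fold rule.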

Additional observations from a re-analysis of the deposited data

How the results depend on the processing

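Scaling by total counts alone shifted the median log2 fold of all genes by 0.10 in ARPC4 ko against wt and by 0.12 in ARPC4 ko against Nrf2-EGFP. It gave 8 members past the size rule in ARPC4 ko against wt instead of 16, and medians of -0.68 there and -0.18 between ARPC4 ko and Nrf2-EGFP. Relative to the median of all genes, the members' median in ARPC4 ko against wt was -0.77 with total counts and -0.78 with TMM. A 1.5-fold rule gave 33, 21 and 7 members (ARPC4 ko against wt, Nrf2-EGFP against wt, ARPC4 ko against Nrf2-EGFP) instead of 16, 10 and 3. DESeq2 size factors, no filter, a filter of 10 CPM (43 members left) and a pseudocount of 2 CPM gave counts within 1.5 times of these, and Gpt2, Gdf15 and Cbs were the calls lost. No member changed sign under any of the 6 alternatives in a comparison in which it passed the rule. No paired analysis was possible because each group has 1 library, and for the same reason no replicate could be left out. Depth limits Gdf15 and Cbs, with at most 48 counts in a library.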

Other observations

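Genes next to the ATF4 programme were also compared. The other arms of the unfolded protein response are led by ATF6 and by IRE1 with its target Xbp1. None of the 12 genes listed for them passed the size rule in either comparison with wt. That count alone does not set them apart from all genes. For ARPC4 ko against wt the median log2 fold was -0.56, and 11 of 12 lay below 0 (51.5% of all genes). The interval lay below 1 for 10 (34.6%), and 6 were at least 1.5-fold lower (6.24%). For Nrf2-EGFP the median was -0.18, and these numbers were 9 (49.5%), 9 (30.8%) and 0 (5.72%). Named after their values were seen, Xbp1 had 68.6, 36.9 and 61.9 CPM (order wt, ARPC4 ko, Nrf2-EGFP) and Atf6 had 76.1, 45.4 and 56.3. Hspa5, the main chaperone of the endoplasmic reticulum, had 1144, 682 and 951 CPM, 1.68-fold lower (1.65 to 1.71) in ARPC4 ko and 1.20-fold lower (1.18 to 1.22) in Nrf2-EGFP. In this list Nrf2-EGFP was thus nearer to wt than ARPC4 ko was, and the difference between the libraries was not tested.

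Of 14 genes listed under glutamine, proline and branched-chain amino acid catabolism, 13 were above the filter, with median log2 folds of -0.25 in ARPC4 ko and -0.22 in Nrf2-EGFP. The 1 gene past the rule was Glul, which makes glutamine from glutamate and so is a synthesis gene in that list. Its counts were 37, 65 and 138, and the level was 3.38-fold higher (2.33 to 4.99) in Nrf2-EGFP than in wt. Over all genes 3.57% passed as higher there, so this 1 gene of 13 does not set the list apart. Bcat2, the mitochondrial counterpart of Bcat1, had 17.3, 14.8 and 10.9 CPM, named after its values were seen, and was lowest in Nrf2-EGFP, whereas Bcat1 was lowest in ARPC4 ko.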
